A study of Bos taurus with 45 samples.

Results

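The comparison described here is the step from 72% to 89% grain in the diet of the DG heifers, the 5 animals (numbers 192, 314, 236, 170 and 182) whose mean ruminal pH was lower on 89% than on 72% grain in the study. Each heifer gave 1 sample on each diet, so 10 of the 45 samples in the series belong to it, and each animal was compared with itself. The animals were Angus-Hereford cross-bred heifers about 8 months old. The papillae, the finger-like folds of the rumen wall, were taken from the ventral sac of the rumen on day 15 (72% grain) and day 26 (89% grain) of a stepwise change from a diet without grain. The sample labels give these diets as 75% and 92% grain, and the diet without grain (0%, biopsied on day 3) as 3%. Every heifer met the diets in the same order, so diet and time on grain cannot be told apart. The other 10 heifers of the series, fed the same diets and with a mean pH that was similar or higher on 89% grain, served as the contrast.

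The rumen is lined by a stratified squamous epithelium whose outer layers cornify, as those of skin do. This epithelium absorbs the short chain fatty acids that microbes make from feed, and it is a barrier between the acidic, microbe-rich contents and the blood. Rapid fermentation of grain starch produces acid faster than it is absorbed or buffered, and a long-lasting low ruminal pH is known as ruminal acidosis. Genes of barrier formation, of the metabolism of foreign compounds and of inflammation are therefore of interest in this tissue.

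RNA-seq levels are given as RPM, a gene's reads scaled to a total of 1000000 (1 M) over all genes of the sample. The 10 samples held 25.4 to 34.2 M reads on genes (all 45 samples, 22.5 to 37.1 M), and no pair of the 10 agreed within counting noise. The median depth was 27.8 M on 72% grain and 33.9 M on 89% grain, and the part of this gap in the results was not tested. These depths were recovered from the single-read steps in RPM. The study reports a lower mean number of reads per sample and defines RPM over mapped reads, a mismatch left unexplained here. The deposited tables name genes by Ensembl ID, and symbols are paired here with 17 IDs. The study pairs 12 of them directly. The other 5 (CYP1A1, CYP1B1, CHAC1, CDSN and KLK10) have IDs inferred here. Fold changes that the study states for each symbol were matched to IDs in its lists of called genes. A wrong match is possible, and the direction and size of change in DG entered each match. Those 5 were picked by the study on these samples for opposite changes in heifers with falling and rising pH, so their directions here are not independent evidence. Markers of epithelial, immune and muscle cells could not be looked up in the same way, so the labelled tissue was not checked against a marker list. In bulk tissue, fewer cells of a type and less RNA per cell cannot be told apart.

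No gene passed the threshold between 72% and 89% grain in the DG heifers. The test was limma on log2(RPM + 1) with the heifer as a block, and a gene was called at an adjusted p (Benjamini-Hochberg) under 0.05 with a change of over 1.5-fold. Of 11516 genes tested, 0 were called (0%), and the smallest adjusted p was 0.2001, shared by 10 genes. At an unadjusted p under 0.05 there were 992 genes (8.61%), of which 433 were higher (3.76%) and 559 lower (4.85%) on 89% grain. On the whole reads recovered from RPM, edgeR with the heifer block also called 0 genes (964 at an unadjusted p under 0.05), whereas DESeq2 with the same block called 26, of which 13 were higher and 13 lower. The 26 included CYP1B1 (adjusted p = 0.000843 by DESeq2), KLK10 (0.00225) and CXCL6 (0.0176) of the genes with a symbol. The study used edgeR at the same thresholds in DG, without stating a term for the animal. It reported genes called in both directions, CYP1A1, CYP1B1, CHAC1, CDSN and KLK10 among them. Here edgeR without the block called 0 genes, by its quasi-likelihood F test with TMM scaling on the recovered reads. The study does not state which edgeR test it used, so the 2 runs may differ in method. The source of this difference was not tested. The named genes are thus described below by their values in each heifer, and the size of each difference is a log2 fold change on the RPM + 1 scale with its standard error (SE).

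CYP1A1 and CYP1B1, cytochrome P450 enzymes that oxidise foreign aromatic compounds and are induced through the aryl hydrocarbon receptor, were lower on 89% grain in most of the DG heifers. CYP1B1 (ENSBTAG00000010531) read 10.9, 25.4, 50.3, 25.3 and 11.4 RPM on 72% grain in heifers 192, 314, 236, 170 and 182, and 5.82, 25.0, 14.01, 13.8 and 6.03 RPM on 89% grain. It was lower in 5 of 5 heifers, but barely so in heifer 314, and the ranges of the diets overlapped because the animals started from different levels. The mean went from 24.7 ± 16.0 to 12.9 ± 7.85 RPM (SD, n = 5), a log2 fold change of -0.85 (SE 0.20, adjusted p = 0.356 by limma).

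CYP1A1 (ENSBTAG00000001021) read 89.9, 107.6, 236.9, 118.4 and 88.7 RPM on 72% grain in the same order of heifers, and 63.1, 165.6, 75.0, 37.8 and 45.5 RPM on 89% grain. Heifer 314 was the exception, with a higher level on 89% grain, and the other 4 were lower. The log2 fold change of CYP1A1 was -0.82 (SE 0.28, adjusted p = 0.506 by limma). Heifer 236 had the highest level of both enzymes on 72% grain and the largest drop of CYP1B1, whereas heifer 314 had the highest level of both on 89% grain.

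Levels on the diet without grain put this step in context. CYP1B1 averaged 44.3 RPM on 0% grain in the DG heifers, above its mean on both grain diets, and CYP1A1 averaged 197.0 RPM. In heifers 192, 170 and 182 both enzymes were lower at each successive biopsy. In heifer 236 both were higher on 72% than on 0% grain before the lower value on 89%.

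**Figure D1:**
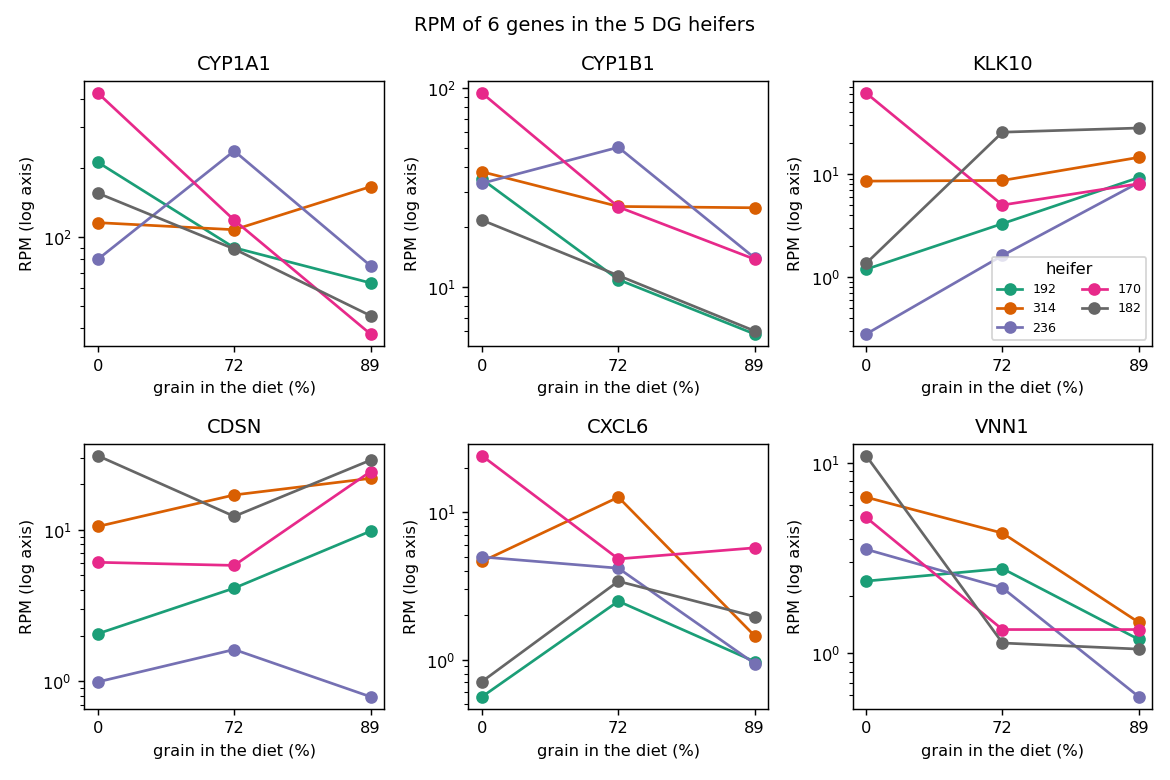
RPM (log axis) of 6 genes in the 5 DG heifers, 1 line per heifer, on 0%, 72% and 89% grain. CYP1B1 was lower on 89% than on 72% grain in 5 of 5 heifers and KLK10 higher in 5 of 5, while the heifers differed widely in level.

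CYP1B1 was lower on 89% grain in the DG heifers and higher in most of the other 10. In the latter, its mean was 11.9 ± 4.07 RPM on 72% grain and 19.3 ± 6.68 RPM on 89% grain (SD, n = 10), and it was higher on 89% grain in 9 of 10. The mean log2 change was 0.66 in the other heifers against -0.85 in DG, a difference (DG minus other) of -1.51 (SE 0.26). This difference had the smallest p of all 11516 genes in the limma interaction test, with an adjusted p of 0.158, and no gene passed (0%, with 611 genes, 5.31%, at an unadjusted p under 0.05). The call depended on the tool and on which heifers were kept. DESeq2 gave CYP1B1 an adjusted p of 1.06e-05 and called no other gene. Limma gave 0.0359 without heifer 314, the DG heifer with the smallest fall, whose removal favours a pass. Without heifer 192, 236, 170 or 182, limma gave 0.304, 0.759, 0.665 and 0.597, all weaker than with every heifer. The difference for CYP1A1 was -1.01 (SE 0.38, adjusted p = 0.865 by limma), with a mean log2 change of 0.19 in the other heifers. Both IDs were matched through opposite fold changes reported from these samples, so these differences are partly built in.

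KLK10 and CDSN, both among the genes picked on these samples, were higher on 89% grain in 5 of 5 and 4 of 5 DG heifers, and neither passed the test. KLK10 (ENSBTAG00000015129), a kallikrein-related peptidase of the family of serine proteases that includes those active in shedding of the outer epithelium, read 3.30, 8.66, 1.62, 5.00 and 25.5 RPM on 72% grain in heifers 192, 314, 236, 170 and 182, and 9.24, 14.5, 8.26, 8.05 and 27.9 RPM on 89% grain. It was higher in 5 of 5 heifers, most in heifer 236 and least in heifer 182, which already had the highest level. The log2 fold change was 0.90 (SE 0.21, adjusted p = 0.356 by limma).

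CDSN (ENSBTAG00000021721) encodes corneodesmosin, an adhesion protein of the junctions between cornified cells. Its level on 72% grain was 4.12, 17.0, 1.62, 5.82 and 12.3 RPM, and on 89% grain it was 9.80, 21.9, 0.79, 24.2 and 28.8 RPM, in the same order of heifers. It was higher in 4 of 5 and lower in heifer 236, the animal in which KLK10 differed most. CDSN and CHAC1 were at or below RPM 1 in at least 1 of the 15 heifers on every diet and so were not among the 11516 genes. In a fit over the 11811 genes above RPM 1 in all 5 DG heifers on 72% or 89% grain, its log2 fold change was 0.79 (SE 0.28, adjusted p = 0.516 by limma), and 0.51 without heifer 170.

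In the other 10 heifers, KLK10 went from 14.8 ± 25.9 to 6.65 ± 5.06 RPM (SD, n = 10), with a mean log2 change of -0.47 and 4 of 10 higher. CDSN went from 30.5 ± 24.9 to 38.1 ± 48.7 RPM (SD, n = 10) with 5 of 10 higher, so its mean RPM was higher on 89% grain while its mean log2 change was -0.47. Neither difference between DG and the other heifers passed the test (adjusted p = 0.865 for KLK10 and 0.864 for CDSN by limma). Heifer 170 had 61.0 RPM of KLK10 on 0% grain and 5.00 RPM on 72% grain, so that levels of this gene also differed by more than the step described here.

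CHAC1 (ENSBTAG00000010371), an enzyme that breaks down glutathione and is induced by the amino acid and unfolded protein stress responses, was higher on 89% grain in 4 of 5 DG heifers. It read 2.0, 3.16, 2.65, 1.85 and 1.68 RPM on 72% grain, a narrow range, and 3.60, 1.60, 2.71, 7.70 and 10.7 RPM on 89% grain. Most of the difference lay in heifers 170 and 182, heifer 236 was nearly level and heifer 314 was lower. The log2 fold change was 0.74 (SE 0.35, adjusted p = 0.587 by limma, in the fit over 11811 genes), and 0.39 without heifer 182.

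Among genes of inflammation and immunity, CXCL6 (ENSBTAG00000009812), a chemokine that attracts neutrophils, had a log2 fold change of -1.01 (SE 0.31, adjusted p = 0.456 by limma), and of -0.65 without heifer 314. It read 2.49, 12.6, 4.17, 4.82 and 3.40 RPM on 72% grain and 0.97, 1.45, 0.94, 5.73 and 1.96 RPM on 89% grain. It was lower in 4 of 5 heifers, with the largest drop in heifer 314, and higher in heifer 170. The study lists CXCL6 as expressed on 72% grain only, so a lower level on 89% grain is partly built in. In the other 10 heifers its mean log2 change was -0.17, with 5 of 10 higher.

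VNN1 (ENSBTAG00000015094), a pantetheinase that releases cysteamine and vitamin B5, read 2.78, 4.27, 2.20, 1.33 and 1.13 RPM on 72% grain and 1.18, 1.45, 0.59, 1.33 and 1.05 RPM on 89% grain. It was lower in 5 of 5 heifers, though the differences in heifers 170 and 182 were small against those in the other 3, and its log2 fold change was -0.59 (SE 0.19, adjusted p = 0.487 by limma). The size depended on the pseudocount and the tool, with -0.90 at pseudocount 0.1, -0.96 in edgeR and -0.955 in DESeq2. The mean change in the other 10 heifers was close to it, -0.55, with 3 of 10 higher. VNN1 was also lower on 72% than on 0% grain in 4 of the 5 DG heifers. The study lists VNN1 as expressed on 0% grain only, so levels below those on 0% grain are partly built in on both grain diets. Its values on 89% grain lay near the filter limit of RPM 1.

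BOLA-A (ENSBTAG00000005182), a heavy chain of the class I molecules that present antigen, was a gene of stable differences between animals. It read 9.02, 12.3, 5.61, 0.96 and 8.75 RPM on 72% grain and 8.65, 11.7, 4.37, 0.99 and 9.10 RPM on 89% grain, so heifer 170 was far below the rest on both diets. The log2 fold change was -0.07 (SE 0.10, adjusted p = 0.890 by limma). Reads of class I genes can be shared between near-identical copies and between alleles, so this level is uncertain.

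The 4 signalling genes went different ways. FOSB (ENSBTAG00000008182), an AP-1 transcription factor of the immediate early response, read 3.19, 3.05, 4.30, 5.56 and 0.95 RPM on 72% grain and 1.36, 66.0, 0.79, 3.51 and 3.02 RPM on 89% grain. Heifer 314 on 89% grain stood far above the other 9 samples and decided the sign, since the log2 fold change was 0.43 (SE 0.65, adjusted p = 0.891 by limma) with it and -0.47 without this heifer. BMP6 (ENSBTAG00000019234), a growth factor of the TGF-beta family, had a log2 fold change of -0.36 (SE 0.22), with 3 of 5 heifers lower, and of -0.095 without heifer 236. LIFR (ENSBTAG00000010423), the receptor of leukemia inhibitory factor, was at 0.02 (SE 0.18) in DG and at 0.56 in the other heifers, of which 9 of 10 were higher (difference -0.54, adjusted p = 0.865 by limma). RASL11A (ENSBTAG00000005244), a small RAS-like protein, was lower in 4 of 5 DG heifers (-0.23, SE 0.12, and -0.12 without heifer 170). LIFR and RASL11A are listed by the study as expressed on 89% grain only. A higher level of either on 89% grain is therefore partly built in, in DG and the other heifers alike.

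LOXL2 and CTGF act in the extracellular matrix, the former as a collagen cross-linking enzyme and the latter as a matricellular growth regulator. LOXL2 (ENSBTAG00000006214) was lower on 89% grain in 4 of 5 DG heifers and higher in heifer 182, with a log2 fold change of -0.41 (SE 0.29) that was -0.17 without heifer 236 and -0.78 without heifer 182. In the other heifers it was lower in 9 of 10, with a mean log2 change of -0.44. CTGF (ENSBTAG00000006367) was higher in heifers 170 and 182 and lower in the other 3 (0.26, SE 0.31), and its value lay between -0.011 (without heifer 170) and 0.55 (without heifer 236).

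ABCG1 (ENSBTAG00000021272), a cholesterol efflux transporter, was higher in 3 of 5 DG heifers (0.31, SE 0.24), with 0.12 without heifer 314 and 0.54 without heifer 182. CDHR2 (ENSBTAG00000025340), a cadherin-related protein of microvilli, was higher in 4 of 5 (0.31, SE 0.27), with -0.0023 without heifer 314 and 0.59 without heifer 182. CXorf57 (ENSBTAG00000003668) read 14.5, 24.5, 7.30, 0.19 and 14.6 RPM on 72% grain and 14.2, 10.9, 8.81, 1.60 and 11.3 RPM on 89% grain, so heifer 170 was again far below the rest, with a log2 fold change of -0.02 (SE 0.25). ENSBTAG00000009144, which the study lists as an uncharacterised protein, was higher in 4 of 5 (0.32, SE 0.25), with 0.096 without heifer 236 and 0.63 without heifer 182. Adjusted p in limma was between 0.653 and 0.992 for BMP6, LIFR, RASL11A, LOXL2, CTGF, ABCG1, CDHR2, CXorf57 and this gene. ABCG1, CDHR2, CXorf57 and ENSBTAG00000009144 are listed by the study as expressed on 89% grain only, so higher levels on that diet are partly built in. Of the 18 IDs taken from the study, 1 was higher and 2 were lower in 5 of 5 heifers, and 6 had an unadjusted p under 0.05, against 8.61% of all genes. The 5 picked for opposite changes supply 4 of the 6. The rest were also listed by the study from these samples, so this share is not evidence about the named genes.

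**Figure D2:**
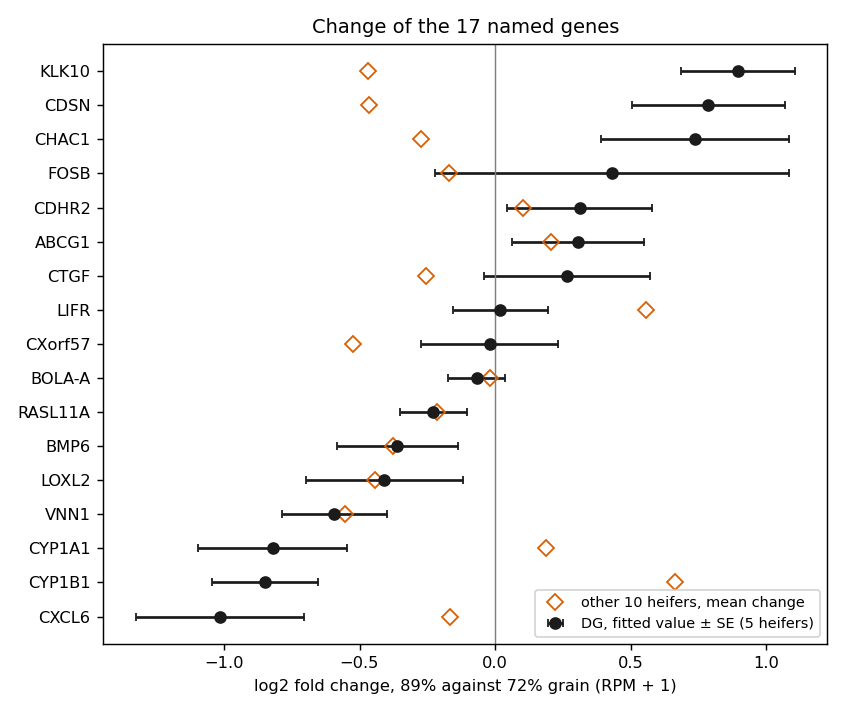
Log2 fold change (RPM + 1) of the 17 named genes between 72% and 89% grain, as the fitted value with its SE in the 5 DG heifers (filled points) and the mean change in the other 10 heifers (open diamonds). In DG, CXCL6, CYP1B1 and CYP1A1 lie farthest left and KLK10, CDSN and CHAC1 farthest right, no gene passed the test, and CXCL6 is at -0.65 without heifer 314.

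Over all genes tested, 483 were higher on 89% grain in 5 of 5 DG heifers (4.19%) and 540 were lower in 5 of 5 (4.69%). The fitted fold change was over 1.5 for 18 genes in the higher direction (0.156%) and 45 in the lower (0.391%). Both held for 14 higher genes (0.122%), KLK10 among them, and 18 lower genes (0.156%), CYP1B1 and VNN1 among them. These 32 genes were picked for their change in DG and are described without a test. DESeq2's 26 calls were nearly all within them: 13 of its 13 higher and 10 of its 13 lower genes.

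The 14 higher genes had a median log2 fold change of 0.74 (0.63 to 1.16), and their mean levels on 72% grain ran from 2.06 to 192.5 RPM. ENSBTAG00000006452, the one with the smallest p, read 42.3, 32.4, 33.3, 46.1 and 49.0 RPM on 72% grain in heifers 192, 314, 236, 170 and 182, and 80.3, 63.9, 53.8, 54.7 and 82.0 RPM on 89% grain. Its diets did not overlap, which held for 24 genes in the higher direction (0.208%) and 33 in the lower (0.287%). ENSBTAG00000006453, next by p, read 30.1, 9.84, 13.1, 32.2 and 25.5 RPM on 72% grain and 78.4, 25.4, 34.0, 36.9 and 57.1 RPM on 89% grain. Heifer 170 had the smallest increase of both genes. Their log2 fold changes were 0.70 (SE 0.10) and 1.05 (SE 0.16), each with an adjusted p of 0.2001 by limma. Without heifer 170 both passed, with adjusted p of 0.0345 and 0.00325 by limma. Leaving out the heifer with the smallest increase favours a pass. Without any 1 of the other heifers neither gene passed, with adjusted p between 0.0963 and 0.504 by limma. Both also averaged less on 0% grain (26.4 and 10.99 RPM) than on 72% grain (40.6 and 22.2 RPM).

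The 18 lower genes had a median log2 fold change of -0.68 (-1.46 to -0.59), from mean levels of 2.35 to 78.1 RPM on 72% grain. ENSBTAG00000013369 read 33.7, 66.7, 33.7, 47.0 and 41.8 RPM on 72% grain and 20.2, 42.1, 17.4, 35.4 and 34.1 RPM on 89% grain, a log2 fold change of -0.59 (SE 0.10, adjusted p = 0.2001 by limma). ENSBTAG00000015018 read 8.80, 11.2, 14.4, 14.2 and 6.91 RPM on 72% grain and 6.23, 7.77, 5.23, 7.81 and 4.27 RPM on 89% grain (-0.72, SE 0.14, adjusted p = 0.324 by limma). Both were lower in 5 of 5 heifers, by most in heifer 236.

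Heifers 236 and 314 carried the larger changes in the lower set and heifer 170 the smaller ones in both. The median log2 change of the 18 lower genes was -1.14 in heifer 236 and -1.01 in heifer 314, against -0.63 in heifer 192, -0.44 in heifer 182 and -0.38 in heifer 170. The median change of the 14 higher genes was 1.17 in heifer 236, 0.99 in heifer 192, 0.81 in heifer 182, 0.70 in heifer 314 and 0.57 in heifer 170. All 15 heifers set the expression filter, so for genes near RPM 1 the direction in the other 10 is not independent. These 10 heifers had no part in the choice by change. They had a mean change of the same sign for 12 of the 14 higher genes (85.7%) and 16 of the 18 lower genes (88.9%), against 56.9% of all genes tested. Their median changes were smaller than in DG, 0.21 for the higher and -0.34 for the lower genes. Heifer by heifer they were more divided: of the single changes in the other heifers, 82 of 140 had the DG sign for the higher genes (58.6%) and 120 of 180 for the lower genes (66.7%), against 53.3% over all genes tested. ENSBTAG00000006452 and ENSBTAG00000006453 were each higher in 5 of the 10. KLK10 was 1 of the 2 exceptions among the higher genes, and CYP1B1 1 of the 2 among the lower. Their IDs were matched through opposite fold changes in heifers with falling and rising pH, and the latter are among the other heifers. The opposite sign of KLK10 and CYP1B1 in the other heifers is thus partly built in.

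**Figure D3:**
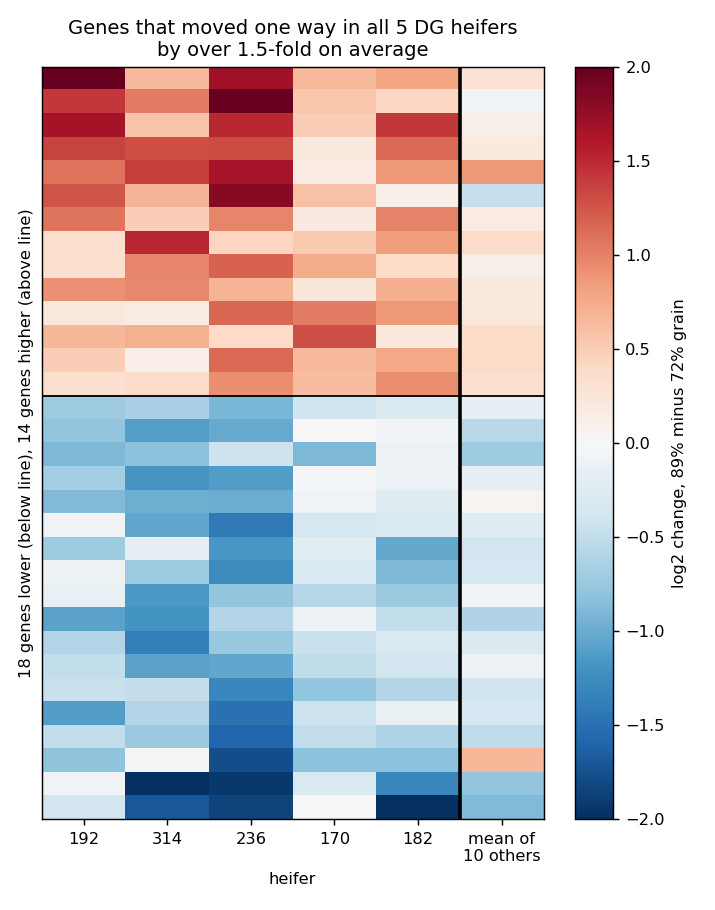
Log2 change between 72% and 89% grain (colour) of the 14 higher and 18 lower genes with the same direction in all 5 DG heifers and a fitted fold change over 1.5, 1 row per gene, with the mean of the other 10 heifers in the last column. The last column has the sign of the DG columns for 28 of the 32 genes and is paler for most.

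The heifers differed in how many genes changed. Between 185 and 311 genes were over 1.5-fold higher on 89% grain in a DG heifer and between 204 and 675 over 1.5-fold lower. Heifer 236 had the most lower genes (675 against 218 higher), followed by heifer 314 (417 against 223), while heifers 192, 170 and 182 had similar numbers in both directions. The total per heifer was 596.4 ± 196.8 (SD, n = 5) in DG and 961.8 ± 615.7 (SD, n = 10) in the other heifers, a difference that did not pass an exact two-sided permutation test (p = 0.253, adjusted p = 0.316 over 5 measures).

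The changes of one DG heifer were only weakly like those of another. Across the 11516 genes, which are not independent, Pearson's r between the changes of 2 DG heifers had a median of 0.07 over 10 pairs. It was highest for heifers 192 and 314 (0.35) and 314 and 236 (0.25), and lowest for heifers 314 and 182 (-0.14). The medians were 0.13 over 45 pairs of the other heifers and 0.10 over 50 pairs of a DG heifer with another. Of the total variance of log2(RPM + 1) among the 10 samples, 64.0% lay between heifers, 9.55% between diets and 26.4% in neither. Reversing the sign of whole heifers gave an exact p of 0.125 for the diet share, where the smallest that 5 pairs allow is 0.0625.

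The number of genes over RPM 1 was lower on 89% than on 72% grain in 5 of 5 DG heifers. It went from 12276 to 12236 in heifer 192, from 12373 to 12201 in heifer 314, from 12289 to 12046 in heifer 236, from 12295 to 12171 in heifer 170 and from 12357 to 12334 in heifer 182, a mean difference of -120.4 ± 91.7 genes (SD, n = 5). The number was above that on 0% grain on both grain diets in heifers 192, 170 and 182, and below it on 89% grain in heifers 314 and 236. In the other heifers the difference ranged from -315 to 105 and was below 0 in 5 of 10, and the difference between the groups did not pass an exact two-sided permutation test (p = 0.193, adjusted p = 0.316 over 5 measures). The 89% sample was the deeper one in 4 of the 5 DG heifers. The exception was heifer 236 (29.04 M reads on 72% and 25.4 M on 89% grain), which also had the largest difference in genes over RPM 1, and the part of depth was not tested. With a limit of RPM 2 in place of RPM 1, heifer 182 had 29 more genes on 89% grain, so the direction then held in 4 of 5.

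**Figure D4:**
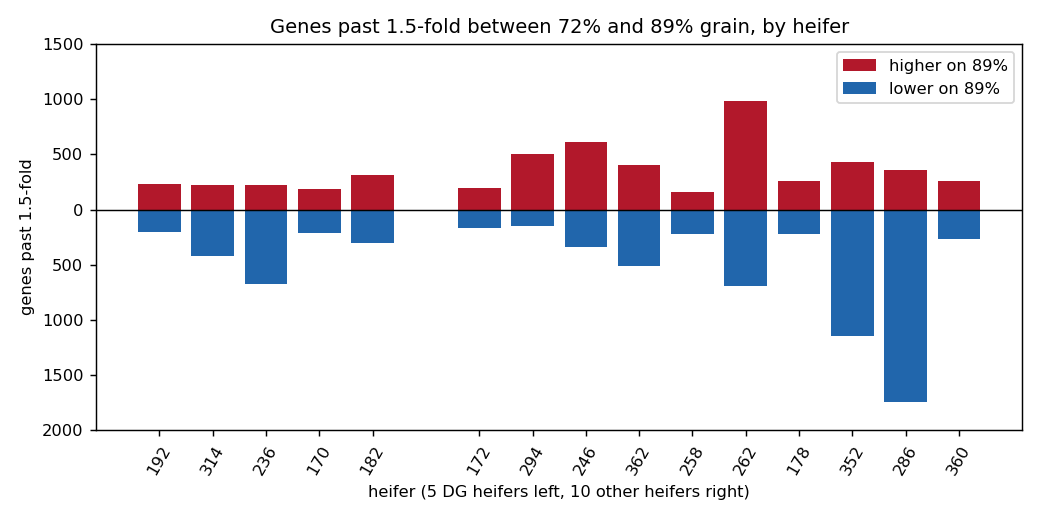
Number of genes over 1.5-fold higher (red, above 0) or lower (blue, below 0) on 89% than on 72% grain in each heifer, DG on the left and the other 10 on the right. The DG heifers span 185 to 311 higher and 204 to 675 lower genes, within the span of the others.

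The fitted changes over 1.5-fold were also counted by level, beside 0.156% higher and 0.391% lower over all genes tested. Of 3301 genes under a mean of 10 RPM, 2 were over 1.5-fold higher and 23 lower. Of 6695 genes from 10 to 100 RPM, 14 were higher and 20 lower, and of 1415 genes from 100 to 1000 RPM, 2 were higher and 2 lower. None of the 105 genes above 1000 RPM differed by that much, but this class is too small to tell none from the shares over all genes. The share at an unadjusted p under 0.05 was 8.91%, 7.33%, 13.4% and 17.1% in these 4 classes. The median absolute log2 fold change was 0.11, 0.07, 0.07 and 0.08 and the median SE 0.13, 0.09, 0.07 and 0.07. The 10 most abundant genes of a sample took 18.5% to 20.3% of its reads on 72% grain and 17.0% to 19.7% on 89% grain.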

How the data were processed

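Papillae RNA of 15 heifers on 3 diets was sequenced by the authors (TruSeq mRNA libraries, paired-end reads, RNA integrity number over 8), with samples of all diets on each lane. Per the study's methods and the labels, reads were processed with CASAVA 1.8, aligned to the bovine UMD 3.1 genome with TopHat2 2.0.10, counted per Ensembl gene with HTSeq, and deposited by the authors as RPM, reads per 1000000 reads on genes, 1 table of 24616 genes per sample. Whether counting used strand is not given in the sources used here, so overlapping and antisense genes cannot be told apart. Single-read steps in RPM gave whole reads for 100% of the values (within 0.01 of a read), and 1 RPM stood for 25.4 reads in the shallowest of the 10 samples.

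Groups came from the heifer number and diet in the sample titles, and DG membership from the study. The test was limma 3.58.1 (R 4.3.3), with the heifer as a block and a mean-variance trend, of log2(RPM + 1) for genes that exceeded RPM 1 in each of the 15 heifers on 1 or more diets. The block rests on the same animal giving both samples. As a check, deviations from the diet means correlated at 0.38 to 0.46 within a heifer. The median of -0.10 between heifers follows largely from subtracting those means, so nothing is read from it. Each heifer is a separate animal, but 1 biopsy per diet leaves the spread within an animal unmeasured. The difference between DG and the other 10 heifers was the interaction of diet and DG membership in 30 samples. The alternatives were edgeR 4.0.16 and DESeq2 1.42.0 on the recovered reads, other scalings, pseudocounts and filters, no block, all 45 samples in one fit, and leaving out each heifer. The fits were tested on simulated data with known changes. Those changes had a single size and the same added spread in all genes. The test therefore does not measure how readily the smaller or uneven changes described here would be called. Plots used matplotlib 3.10.9.

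Gene IDs were not paired with symbols in the tables, and 0 matched the reference table, so the planned lists of pathway genes and cell markers were not used, and neither positions nor sequences are given. The rule for named genes took every gene the study pairs with an ID, or that its lists and stated fold changes allowed to be matched. Among genes with a fitted fold change over 1.5 and the same direction in 5 of 5 heifers, it took up to 12 each way by p. Of these, 2 each way are printed by ID. The parts of the rule that needed symbols were void. The genes and rules were chosen with earlier results of these data known. Lane, and feed intake or pH per heifer, were not analysed here.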

Additional observations from a re-analysis of the deposited data

Results flagged for a closer look

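In groups of 5 samples, a value was marked when its gap to the nearest other value, over the whole range of the group, was above the critical value of Dixon's test (0.71). This was tested in 50 groups of the named genes and counts per heifer, and 5 values were marked. Chance marks about 1 in 20 groups if values are normally distributed. Untransformed RPM need not be, and all 5 marked values were the highest of their group, so the chance rate may be higher. FOSB in heifer 314 on 89% grain read 66.0 RPM against 0.79 to 3.51 RPM in the other 4 heifers. CXCL6 in heifer 314 on 72% grain read 12.6 RPM, where the next value was 4.82 RPM. CXCL6 in heifer 170 on 89% grain read 5.73 RPM, where the next was 1.96 RPM. LIFR in heifer 182 on 89% grain read 7.23 RPM, where the next was 4.73 RPM. CYP1A1 in heifer 236 on 72% grain read 236.9 RPM, where the next was 118.4 RPM. Heifer 314 therefore held 2 of the 5 marked values.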

How the results depend on the processing

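The count of 0 genes between 72% and 89% grain in DG was found again under other pseudocounts, scalings and filters, without the variance trend, without the fold change minimum, with edgeR, with all 45 samples in one fit and with no heifer block. The exceptions were DESeq2 with the block, which gave 13 higher and 13 lower genes, and the fits without 1 heifer, which gave 0 to 2 higher and 0 to 4 lower genes: without heifer 170 there were 2 higher (ENSBTAG00000006452 and ENSBTAG00000006453), and without heifer 182 there were 1 higher and 4 lower. With no heifer block in the fit, the genes at an unadjusted p under 0.05 fell from 992 to 451 (edgeR, no block, 465), and with all 45 samples they were 449. Without heifer 236 they were 654. Pairing by heifer changed no call of a named gene in limma.

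For the difference between DG and the other heifers the count was 0 lower genes except with DESeq2 (1, CYP1B1) and without heifer 314 (1, CYP1B1), so leaving out a DG heifer gave 0 to 1. Adjusted p of CYP1B1 in that test ranged up to 1.00 (from 1.06e-05) over the alternatives, with the log2 difference between -1.72 and -1.28. Genes at an unadjusted p under 0.05 were 230 with no block against 611, 270 with edgeR and no block, 406 with all 45 samples, 996 with no expression filter, 232 without heifer 236 and 395 without heifer 182. Of the 611, 63.7% were higher in DG, against 45.8% with TMM scaling, so no direction is read from that split.

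Of 428 recomputed values of the named genes, 406 kept their direction and side of the threshold, 11 newly passed (DESeq2 for CXCL6, CYP1B1, KLK10, ENSBTAG00000006452, ENSBTAG00000006453, ENSBTAG00000013369 and ENSBTAG00000015018, and those named above) and 11 changed sign, all of genes with no call. CXorf57 was at 0.26 with pseudocount 0.1, 0.070 with pseudocount 0.5 and 0.21 in DESeq2. Without each heifer in turn, the log2 fold change lay between -0.31 and 0.25 for CXorf57 (above 0 without heifer 314 or 182), -0.086 and 0.20 for LIFR (below 0 without 314, 170 or 182), -0.0023 and 0.59 for CDHR2 and -0.47 and 0.93 for FOSB (both below 0 without 314), and -0.011 and 0.55 for CTGF (below 0 without 170). The cause of these shifts was not tested. The alternatives for lists of genes were not run, since the IDs are not paired with symbols, and CHAC1 and CDSN have no value under the filter over 15 heifers. Filters for these 2 genes, other RPM limits and other scalings of the variance shares were chosen after seeing the data. The count of genes over an RPM limit was lower on 89% grain in 5 of 5 heifers at a limit of 0.5, as at 1, but not at 2. FOSB without heifer 314 had a mean of 2.17 RPM on 89% grain, against 14.9 RPM.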
